A study of Mus musculus with 15 samples.

Results

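The unfolded protein response and the integrated stress response were followed through 33 human genes, chosen by name as a list and all found among the 25382 gene symbols of the count table. The list holds 14 chaperones and folding enzymes of the endoplasmic reticulum (ER), 4 genes of ER-associated degradation, 5 stress sensors and transcription factors, and 10 targets of the factor ATF4. Each of the 33 passed the filter on low counts that left 15190 genes for testing, and the lowest count of a member in a library was 65.

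When unfolded proteins gather in the ER, the sensors IRE1 (gene ERN1), PERK (gene EIF2AK3) and ATF6 are released from the chaperone BiP (gene HSPA5). ATF6 and the spliced form of XBP1, which IRE1 makes, raise ER chaperones and the genes that send misfolded proteins to the proteasome. PERK and its sister kinases slow protein synthesis by phosphorylating eIF2 alpha and favour translation of ATF4, which raises genes for amino acid synthesis and transport, tRNA charging and, through DDIT3 (CHOP), cell death, and solid tumours are a well-known setting of both responses. Splicing of XBP1, phosphorylation and translation are not visible in gene counts, so the values below are transcript levels only.

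The libraries hold RNA of primary tumours of MDA-MB-231 cells with GFP and luciferase, a line from a human triple-negative breast cancer, in mice whose strain is labelled Nod/Skid. The starting cells were weakly adherent (sheared at 10 dyn per square centimetre, 6 libraries), strongly adherent (sheared at 50 dyn per square centimetre, 4 libraries) or unsorted (no shear, 5 libraries). All tumours share the same line and strain label, no other allele or agent is given, and tumours were taken out and dissociated before the RNA of the bulk cells was read. Each title also carries a number (4, 5, 6, 7-8, 9 or 10) whose meaning the labels do not give, and libraries are named here by adhesion group and number. No strongly adherent library is numbered 7-8, and number 10 has a weakly adherent library only. The labels do not say that libraries came from separate animals, so p-values measure the spread between these libraries, which may be technical.

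Total counts ran from 30372619 to 45434799 per library, and the biological coefficient of variation was 33.6%. Levels are CPM, counts scaled to a common library size with the trimmed mean of M values, changes are log2 fold changes ± SE, and a gene is called where the Benjamini-Hochberg adjusted p of edgeR's quasi-likelihood test over all genes tested is below 0.05. In the line's marker list, VIM was between 1143 and 7399 CPM and CD44 between 478 and 776 CPM across the 15 libraries. The 3 libraries numbered 6 stood apart from the other 12 in many genes, and strongly adherent library 5 had the lowest VIM of all 15 libraries and the highest summed level of skeletal muscle genes. Several results that rest on these libraries, but not all, are given with and without them. Triplets of values for a title number follow the order strong, unsorted, weak. In bulk samples, fewer cells of a type and less RNA per cell cannot be told apart.

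**Figure D1:**
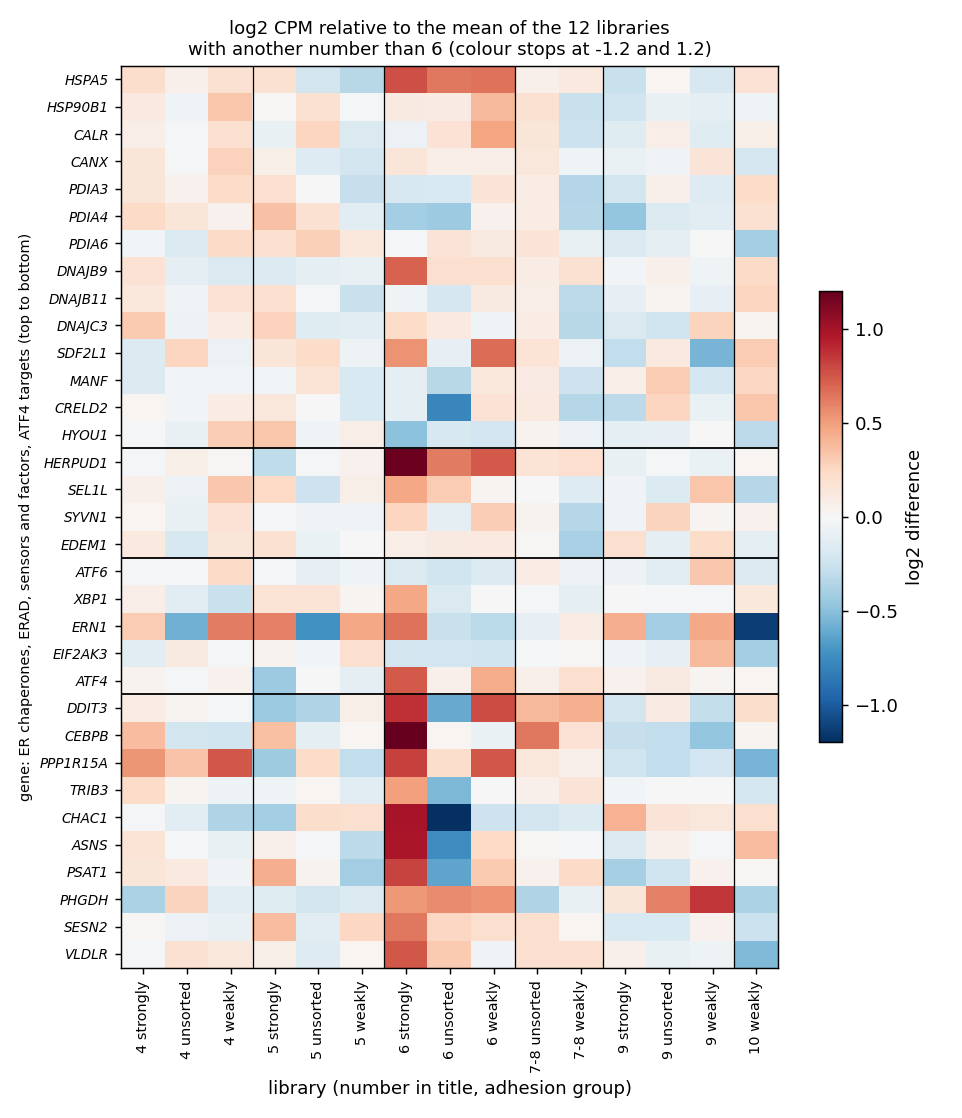
Rows are the 33 genes in 4 role groups and columns the 15 libraries, ordered by title number; colour is log2 CPM minus the mean of the 12 libraries with another number than 6. The libraries numbered 6 are the most strongly coloured, with HSPA5 and HERPUD1 raised in all 3. Most ATF4 targets are raised in the strongly adherent one, where 9 of 10 lie above all 12 other libraries. The share of all genes above them in that library was not counted.

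The adhesion class of the starting cells was the comparison the study was built on. None of the 33 genes was called between weakly and strongly adherent, between weakly adherent and unsorted, or between strongly adherent and unsorted tumours, where the share of all 15190 genes called was 0% in each. At an unadjusted p below 0.05, edgeR's test picked 366, 81 and 572 of the 15190 genes in these comparisons and 1, 0 and 1 of the members. DESeq2 called none in any of the 3 comparisons and picked 402, 96 and 631 genes at that level, with 1 member in each. The 95% interval lay within a 2-fold change in either direction for 32, 32 and 30 of the 33 members in these comparisons. It lay within a 1.5-fold change for 22, 27 and 23 of them, so smaller effects were less often bounded. These intervals treat the libraries as independent, which the labels do not state.

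The ER chaperones as a list had medians near 0 between adhesion classes. Their median log2 fold change was -0.01 for weakly against strongly adherent, -0.00 for weakly adherent against unsorted and -0.01 for strongly adherent against unsorted, beside medians over all genes of -0.02, -0.00 and 0.02. HSPA5, whose product BiP is the main ER chaperone and holds the sensors in check, differed by -0.14 ± 0.22 between weakly and strongly adherent tumours (95% interval -0.59 to 0.32). The ATF4 targets had medians of -0.24, 0.03 and 0.23 in the same 3 comparisons. The median of -0.24 for weakly against strongly adherent was -0.05 without strongly adherent library 6. The median of 0.23 for strongly adherent against unsorted fell to 0.09 without strongly adherent library 6, and was -0.02 without the 3 libraries numbered 6 and strongly adherent library 5.

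ERN1, which encodes the sensor kinase and RNase IRE1, had the smallest p among members in these comparisons when adhesion group alone was fitted. With the title number as block, CEBPB between weakly and strongly adherent had a smaller unadjusted edgeR p (0.0018) than ERN1 between strongly adherent and unsorted (0.0022). The ERN1 level in strongly adherent libraries 4, 5, 6 and 9 was 4.82, 5.93, 6.10 and 5.26 CPM. Unsorted libraries 4, 5, 6, 7-8 and 9 stood at 2.60, 2.35, 3.23, 3.63 and 2.91 CPM, so every strongly adherent library lay above every unsorted one, a separation seen in 0.54% of all genes. The log2 fold change was 0.91 ± 0.28 (95% interval 0.31 to 1.51), with an unadjusted p of 0.0056 that did not pass adjustment in edgeR's quasi-likelihood test (adjusted p = 0.975). ERN1 was higher in the strongly adherent library in 4 of 4 same-numbered pairs, as were 10.7% of all genes, and the difference was 0.89 without the libraries numbered 6. In weakly adherent tumours ERN1 was spread from 1.77 CPM in library 10 to 5.95 CPM in library 4, which covers most of the range of both other classes.

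CEBPB, a transcription factor gene that ATF4 induces, was the member with the lowest p between weakly and strongly adherent tumours. Strongly adherent libraries 4, 5, 6 and 9 held 121, 120, 223 and 77.4 CPM, and the 6 weakly adherent libraries ran from 67.9 to 106 CPM with a mean of 88.8 ± 13.4 CPM (SD, n = 6). The groups overlapped, and strongly adherent library 6 was far above the rest. The log2 fold change was -0.61 ± 0.24, with an unadjusted p of 0.0228 that did not pass adjustment in edgeR's test, and it was -0.25 without the libraries numbered 6. CEBPB and XBP1 were lower in the weakly adherent library in 4 of 4 same-numbered pairs, as were 6.16% of all genes. The differences were 0.19 to 1.33 and 0.03 to 0.46 on the log2 scale. Without the libraries numbered 6, the log2 fold change of XBP1 between weakly and strongly adherent tumours was -0.12. The labels do not say that libraries of the same number belong together.

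**Figure D2:**
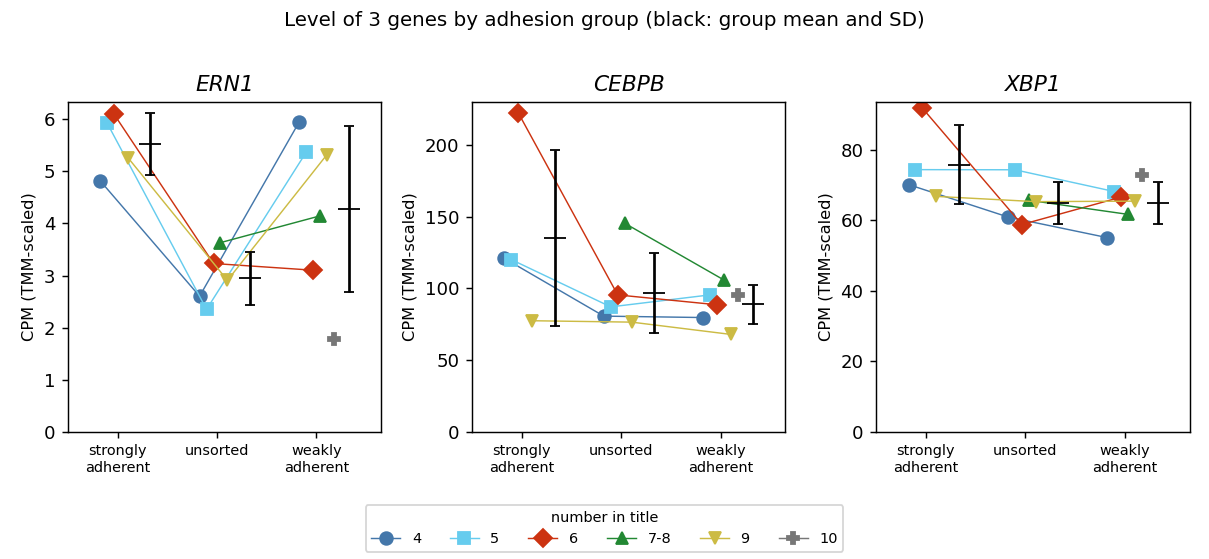
Points show the CPM of ERN1, CEBPB and XBP1 in each library by adhesion group (x axis), lines join libraries with the same title number, and black marks give the group mean and SD (n = 4, 5 and 6). ERN1 of the 4 strongly adherent libraries lies above 4.8 CPM and that of the 5 unsorted libraries below 3.7 CPM, while CEBPB and XBP1 overlap between groups and peak in strongly adherent library 6.

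The libraries numbered 6 differed from the rest in a few members. Against the 12 libraries of other numbers, with adhesion group as a covariate, 4 of the 33 genes were called (12.1%), where 26.5% of all genes were. All 4 were higher in number 6: HERPUD1, HSPA5, ATF4 and DNAJB9. Of all genes, 10.4% were called higher in number 6 and 16% lower, so the members' share of higher calls was close to the background and no member was called lower. The 3 libraries of number 6 may form a single set, in which case these p-values are too small. This contrast was also chosen with earlier results of these data known, so its p-values are not those of a comparison set in advance. With 1 mean per title number, 1721 genes were called in place of 4018, and HSPA5 and HERPUD1 were the 2 members called.

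HSPA5 stood at 1359, 1232 and 1247 CPM in the 3 libraries of number 6. In the other 12 libraries it ran from 633 to 922 CPM with a median of 829 CPM. All 3 libraries of number 6 were above all 12 others, as they were for 5.63% of genes. The change was 0.67 ± 0.12 on the log2 scale, or 1.59-fold, with an adjusted p of 0.0014 in edgeR's test. It stayed called in 15 of 15 fits that left out a library and in 10 of 10 other settings, where the adjusted p reached 0.0481 with 1 mean per title number.

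DNAJB9, a co-chaperone of BiP, was at 41.8, 29.4 and 29.2 CPM in number 6 and from 22.8 to 30.1 CPM elsewhere (median 24.9 CPM). Only the strongly adherent library lay outside the range of the others. The log2 fold change of 0.36 ± 0.12 was called (edgeR adjusted p = 0.0368), but the call rested on that library: without strongly adherent library 6 the change was 0.19 and the adjusted p 0.375. It was also lost, at adjusted p between 0.0503 and 0.0564, without unsorted library 4, strongly adherent library 5, unsorted library 5, weakly adherent library 5 or strongly adherent library 9.

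Of the 14 listed folding genes, only HSPA5 and DNAJB9 were called. The other 12 chaperones and folding enzymes had log2 fold changes from -0.31 to 0.40 in number 6, none of them called, and the median of all 14 was 0.07, beside -0.01 for all genes. The ER lectins CALR and CANX, which hold glycoproteins during folding, differed by 0.21 ± 0.12 and 0.09 ± 0.11, and HSP90B1 (GRP94), the ER form of HSP90, by 0.20 ± 0.13. The disulfide isomerase genes PDIA3, PDIA4 and PDIA6 differed by -0.08 ± 0.14, -0.26 ± 0.16 and 0.07 ± 0.13. HYOU1, a large ER chaperone that exchanges nucleotide on BiP, was at 175, 215 and 211 CPM in number 6, against 198 to 311 CPM elsewhere. Its change was -0.31 ± 0.13 with an adjusted p of 0.08 by edgeR, and it passed in 2 of 25 other fits, with upper-quartile scaling (0.0457) and without weakly adherent library 10 (0.0437).

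SDF2L1, MANF and CRELD2, ER stress-induced genes of the ER lumen, had their lowest level within number 6 in the unsorted library. SDF2L1 was at 14.4, 9.26 and 15.8 CPM there, and the other numbers ran from 6.72 to 12.3 CPM. Its change of 0.40 ± 0.18 missed the threshold (adjusted p = 0.11, edgeR) and was 0.71 with an adjusted p of 0.0123 without unsorted library 6. CRELD2 in unsorted library 6 was 8.09 CPM and MANF 55.1 CPM, both below all 12 libraries of other numbers. Here and for the other members, the share of all genes outside these 12 in a single library was not counted.

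HERPUD1, an ER membrane protein of the degradation machinery that responds to both the ATF6 and the ATF4 arm, had the largest called change of the 33 genes. Its levels in number 6 were 103, 70.0 and 75.3 CPM. The other 12 libraries lay between 36.7 and 52.1 CPM (median 45.4 CPM), all below the lowest of these. The log2 fold change was 0.86 ± 0.11, or 1.82-fold, with an adjusted p of 1.34e-04 in edgeR's test, and it was called in 15 of 15 fits without a library and in 10 of 10 other settings. The other listed genes of ER-associated degradation were not called. SEL1L and SYVN1, which form the ubiquitin ligase complex, differed by 0.26 ± 0.13 and 0.15 ± 0.11. EDEM1, which trims glycans of proteins due for disposal, differed by 0.08 ± 0.11.

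**Figure D3:**
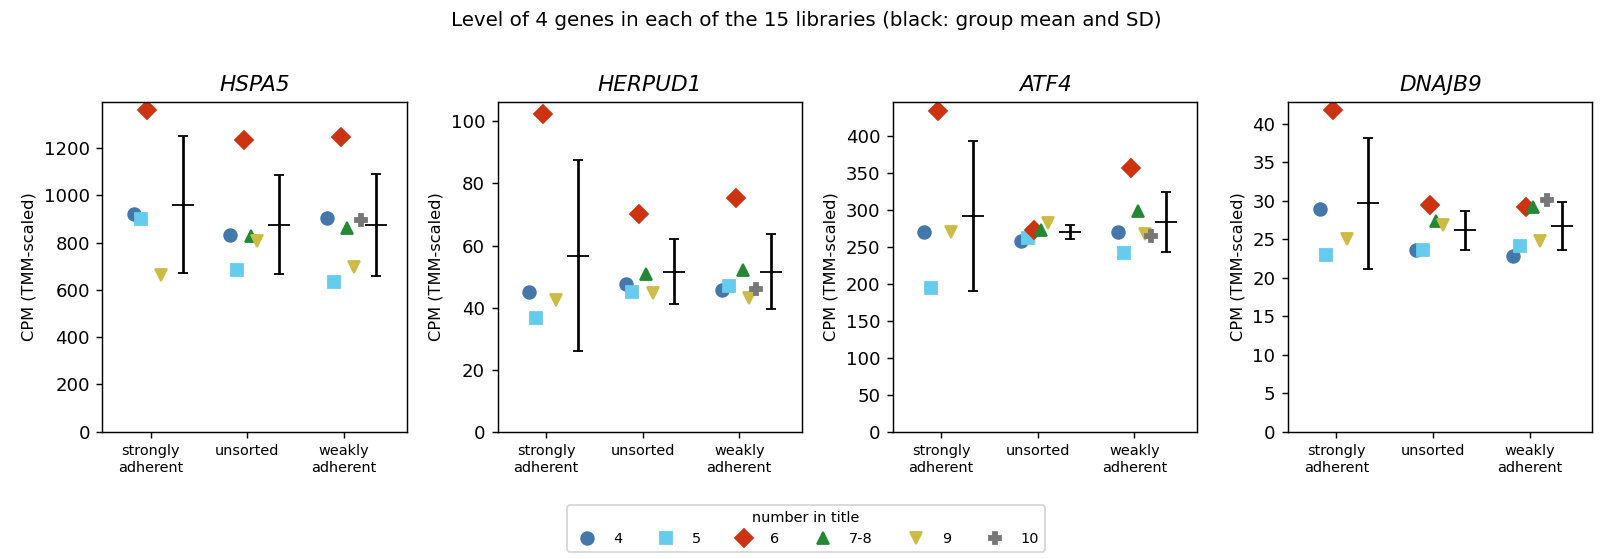
Points show the CPM of HSPA5, HERPUD1, ATF4 and DNAJB9 in each library by adhesion group (x axis), with shape and colour for the title number; black marks give the group mean and SD (n = 4, 5 and 6). In all 3 adhesion groups the red diamond of number 6 is the highest point for HSPA5 (1232 to 1359 CPM) and HERPUD1 (70.0 to 103 CPM), while ATF4 of number 6 lies above the other 12 libraries in the strongly and weakly adherent library only, and DNAJB9 in the strongly adherent library only.

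Of the listed sensors and factors, ATF4 alone was called. ATF4 transcript was at 434, 273 and 357 CPM in number 6 and between 194 and 299 CPM elsewhere (median 269 CPM), so the unsorted library was inside the range of the rest and both others were above it. The change was 0.43 ± 0.13 (1.35-fold, edgeR adjusted p = 0.0204). It lost its call without strongly adherent library 6 (0.23, adjusted p 0.280), without weakly adherent library 6 (0.44, adjusted p 0.0624) and with 1 mean per title number (adjusted p 0.117).

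None of the 3 sensor genes was called in number 6. ATF6 was at 57.6, 55.2 and 57.6 CPM there and at 57.8 to 81.3 CPM elsewhere, a full separation downward that 10.4% of all genes share. Its change was -0.20 ± 0.10 and not called (adjusted p = 0.16, edgeR). EIF2AK3, for the kinase PERK, differed by -0.23 ± 0.14 and ERN1 by -0.05 ± 0.28. XBP1, the factor gene that IRE1 splices, differed by 0.09 ± 0.11 and was highest of all 15 libraries in strongly adherent library 6, at 91.8 CPM, against 55.1 to 74.4 CPM in the 12 libraries of other numbers.

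**Figure D4:**
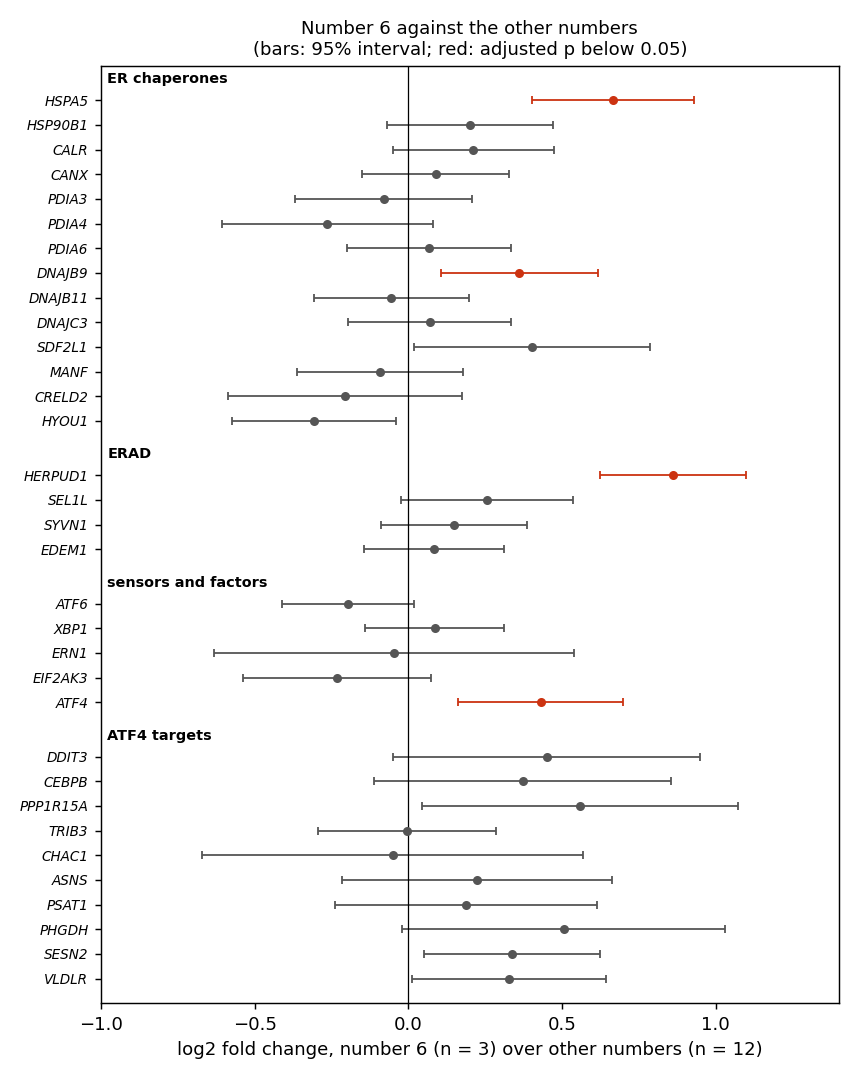
Points are log2 fold changes of number 6 (n = 3) against the other numbers (n = 12), with adhesion group as a covariate, bars are 95% intervals and red marks the 4 called genes. HERPUD1 (0.86) and HSPA5 (0.67) lie clear of 0, and the interval widths differ between genes, from ERN1 and CHAC1 among the widest to ATF6 among the narrowest.

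The ATF4 targets, in contrast, had a positive median as a list but none of the 10 was called in number 6. Their median change was 0.33, from -0.05 for CHAC1 to 0.56 for PPP1R15A, and the 3 libraries of number 6 lay far apart from each other. Strongly adherent library 6 was above all 12 libraries of other numbers for 9 of the 10 genes, all but PHGDH. Unsorted library 6 was below all 12 for 5 of the 10: DDIT3, TRIB3, CHAC1, ASNS and PSAT1. How many of all genes lay outside the other 12 in a single library was not counted, so these counts have no background share. The separation of all 3 libraries of number 6 was seen in 5.63% of all genes upward and 10.4% downward. It is a stricter condition, so these shares are no background for a single library. The median of the list dropped to 0.05 without strongly adherent library 6 and rose to 0.55 without unsorted library 6, where DDIT3 (0.88, adjusted p 0.0066), ASNS (0.63, adjusted p 0.0172) and PSAT1 (0.54, adjusted p 0.044) were called by edgeR.

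CHAC1, an enzyme that breaks down glutathione, showed the widest gap. It was at 11.2 CPM in strongly adherent, 2.47 CPM in unsorted and 4.79 CPM in weakly adherent library 6, while all other libraries lay between 4.27 and 7.57 CPM (median 5.91 CPM). The strongly adherent level was 4.55 times the unsorted one, where the whole spread of the other 12 libraries was 1.77-fold.

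ASNS makes asparagine and PSAT1 catalyses a step of serine synthesis. ASNS stood at 49.5, 14.99 and 29.6 CPM in number 6, and at 20.2 to 32.5 CPM elsewhere (median 24.8 CPM). PSAT1 stood at 57.8, 21.2 and 41.1 CPM, and at 24.7 to 44.5 CPM elsewhere (median 34.1 CPM). For both genes the strongly adherent library was the highest and the unsorted library the lowest of all 15, with the weakly adherent library inside the range of the others. PHGDH, the enzyme before PSAT1 in the same pathway, did not share this order, at 5.00, 5.16 and 5.07 CPM.

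TRIB3 and DDIT3 are stress effectors, a pseudokinase that restrains ATF4 and the pro-apoptotic factor CHOP. TRIB3 had 50.1, 24.4 and 35.4 CPM in number 6, with 30.8 to 41.3 CPM elsewhere. DDIT3 had 24.7, 8.83 and 23.0 CPM, with 9.84 to 18.1 CPM elsewhere, so here the weakly adherent library was also above all others. SESN2 and VLDLR, a sestrin and a lipoprotein receptor, were highest in strongly adherent library 6 (21.7 and 26.4 CPM) and stood at 16.6 and 19.6 CPM in the unsorted one, above the medians of the other numbers (13.8 and 16.3 CPM).

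Each same-numbered difference compares a single library with another, and the median over all genes was not computed for these pairs. Strongly adherent minus unsorted, the median over the 10 ATF4 targets was 1.13 on the log2 scale in number 6, with 9 of 10 genes higher, and 0.09, 0.08 and -0.01 in numbers 4, 5 and 9. For the ER chaperones the same medians were 0.08 in number 6 and 0.11, 0.16 and -0.18 in numbers 4, 5 and 9. Weakly adherent minus unsorted, the ATF4 targets' median was 0.53 in number 6, and between -0.06 and 0.02 in numbers 4, 5, 7-8 and 9.

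Whether adhesion differences in number 6 departed from those in other numbers was tested with an interaction term, added after the split had been seen. Each adhesion class has 1 library in number 6, which the model assumes to vary like the rest. edgeR's quasi-likelihood test called none of the 33 members and 0.0592% of all genes (9 of 15190). At an unadjusted p below 0.05 it picked 1691 genes and 9 members, among them 5 ATF4 targets, and the lowest adjusted p of a member was 0.159 for ASNS. DESeq2 called 296 genes and 4 members: ASNS (adjusted p 0.0013), CHAC1 (0.0104), TRIB3 (0.0282) and DDIT3 (0.0298). limma voom called no gene and no member, and picked 1382 genes and 9 members at an unadjusted p below 0.05. With all 15 libraries, single ATF4 targets were thus called for the interaction by DESeq2 only.

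**Figure D5:**
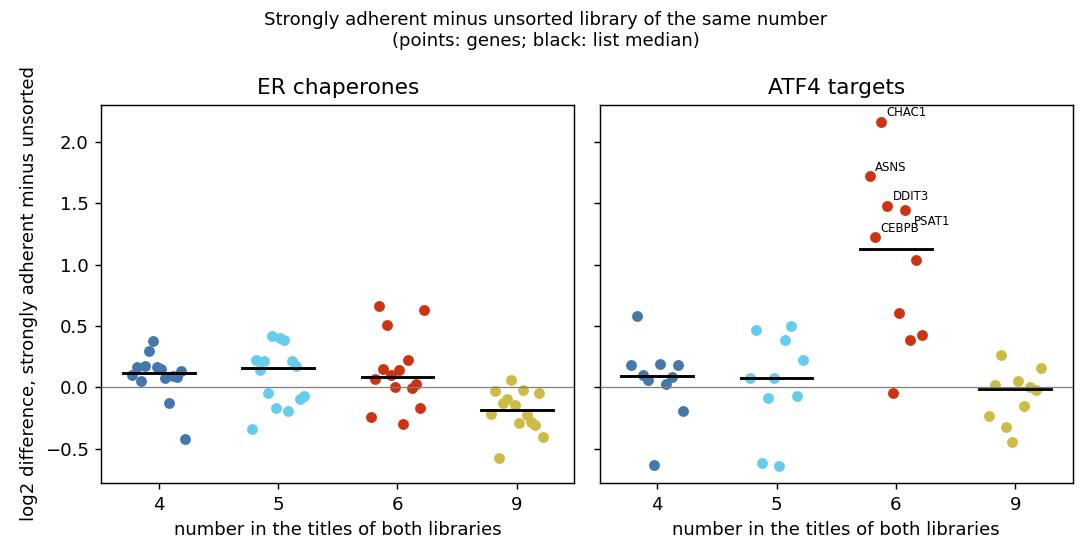
Each point is a gene, the y axis is its log2 CPM in the strongly adherent minus the unsorted library of the same title number (x axis), and black bars are list medians. ATF4 targets (right) have a median of 1.13 in number 6 and of 0.09, 0.08 and -0.01 in numbers 4, 5 and 9. The medians of the ER chaperones (left) lie between -0.18 and 0.16, while single chaperones spread further, such as CRELD2 from -0.57 to 0.66. Each difference compares a single library with another, and medians over all genes were not computed.

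Across all 6 title numbers, with adhesion group as a covariate, 3 members differed by edgeR's test, where 7.9% of all genes did: HERPUD1 (adjusted p = 0.0109), HSPA5 (adjusted p = 0.0243) and PPP1R15A (adjusted p = 0.0256). Leaving out 1 library gave between 0 members, without strongly adherent library 6, and 3 members. Without the 3 libraries of number 6, no member and 0.0197% of all genes (3 of 15255) were called, with 2150 genes and 4 members at an unadjusted p below 0.05. DESeq2, with all 15 libraries, called 3344 genes and 5 members, adding CEBPB and PHGDH.

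PPP1R15A (GADD34), which brings a phosphatase to eIF2 alpha and so restores translation, was high in number 4. In number 6 it was high in the strongly and weakly adherent library but not in the unsorted one. The libraries of number 4 held 262, 230 and 304 CPM, and those of number 6 held 320, 210 and 304 CPM. The other 9 libraries ran from 123 to 211 CPM. Its change in number 6 was 0.56 ± 0.24 with an adjusted p of 0.0978, and 0.65 with an adjusted p of 0.0265 by edgeR without weakly adherent library 4.

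PHGDH, called among title numbers by DESeq2 but not by edgeR, was at 5.00 to 5.16 CPM in number 6. It was at 3.86, 5.29 and 6.32 CPM in number 9, and at 2.67 to 4.20 CPM elsewhere. Its change in number 6 was 0.51 ± 0.25 (edgeR adjusted p = 0.141), and without weakly adherent library 9 it was 0.60 with an adjusted p of 0.0418. Title number accounted for 87.9% of the variance of log2 CPM of HERPUD1, 86.3% of HSPA5, 81.2% of PPP1R15A and 79.0% of PHGDH. It accounted for as little as 12.3% for ASNS, whose extremes are within number 6, and the median over the members was 43.4%, beside 50.5% for all genes. Adhesion group accounted for a median of 5.44% over the members and 7.36% over all genes, and for 43.1% of ERN1. Title number has 6 levels and adhesion group 3, and more levels take up more variance even without an effect. The shares of number and group are therefore not comparable, and the level without an effect was not computed.

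Wider lists of the same pathways gave a mixed picture in number 6, where 26.5% of all genes were called, 10.4% higher and 16% lower. Of 59 further ER folding and translocation genes tested, 9 were called higher and 0 lower (15.3% called, below the share of all genes), among them CLGN, a testis homologue of calnexin (0.69 ± 0.18), SEC61G, a subunit of the ER translocon (0.62 ± 0.18), and ERO1L, the oxidase that recharges disulfide isomerase (0.54 ± 0.16). Among 24 further degradation genes, 3 were higher and 1 lower (16.7% called, also below that share). UBE2J1, a ubiquitin-conjugating enzyme of the ER membrane, rose by 0.63 ± 0.12, while SEL1L3, a relative of SEL1L, fell by 3.48 ± 0.75 to between 0.36 and 8.82 CPM from 22.3 to 54.9 CPM elsewhere. Of 22 further regulators of the unfolded protein response, 2 were higher and 4 lower (27.3% called, near that share), with BAK1, a mitochondrial death effector, at 0.39 ± 0.10 and the death receptor gene TNFRSF10B, a known CHOP target, at -0.58 ± 0.14.

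Genes that act with eIF2 and amino acid supply also split. Of 22 further regulators of the integrated stress response, 31.8% were called, beside 26.5% of all genes. In this list 4 were higher, among them the eIF2B subunit genes EIF2B2 (0.41 ± 0.12), EIF2B5 (0.29 ± 0.09) and EIF2B1 (0.28 ± 0.09), which encode parts of the exchange factor that phosphorylated eIF2 blocks. A further 3 were lower, with EIF2AK2, the kinase PKR, at -0.84 ± 0.24. Of 22 further ATF4-linked genes of amino acid synthesis and transport, 6 were higher and 3 lower (40.9% called, beside 26.5% of all genes, of which 10.4% were higher and 16% lower). CTH, the last enzyme of cysteine synthesis, rose by 0.90 ± 0.17, whereas the transporter genes SLC7A5 and SLC6A9 fell by 0.64 ± 0.22 and 0.61 ± 0.12.

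Among 20 aminoacyl-tRNA synthetase genes, 9 were called higher and 0 lower (45% called higher, beside 10.4% of all genes), led by FARSA (0.67 ± 0.11), LARS (0.51 ± 0.10) and DARS (0.43 ± 0.10), with a list median of 0.25. Of 25 other ATF4 targets, 3 were higher and 6 lower (36% called, beside 26.5% of all genes). EIF4EBP1, a brake on cap-dependent translation, rose by 0.58 ± 0.12, and GDF15, a secreted stress cytokine, fell by 3.40 ± 0.71, from 3.96 to 62.5 CPM in the other libraries to between 0.79 and 3.16 CPM. Known targets of the ATF4 and CHOP arm moved in both directions in number 6. In the 3 adhesion comparisons none of the genes in these lists was called.

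Several other lists held called genes in number 6, where 10.4% of all genes were called higher and 16% lower. Of 19 cytosolic heat shock genes 11 were called higher and 0 lower, with a summed level of 7546 to 8662 CPM in number 6 and 4998 to 6873 CPM in the other 12 libraries. Of 28 hypoxia genes 11 were higher and 1 lower, summed 13925 to 15402 CPM against 5913 to 11240 CPM, and of 35 immediate early genes, which also respond to tissue dissociation, 13 were higher and 3 lower. Skeletal muscle genes summed to 508, 1193 and 264 CPM in number 6, to 2923 CPM in strongly adherent library 5, and 11 of 20 were called higher and 2 lower. Among 11 tested fibroblast genes 6 were lower and 1 higher, with the summed level at 529 to 813 CPM against 713 to 1427 CPM. Of 9 tested markers of the tumour line, 1 was higher and 4 were lower. VIM, the mesenchymal filament gene, was at 6489 to 7399 CPM in number 6 and 1143 to 4478 CPM elsewhere (0.95 ± 0.23), while the epithelial keratin genes KRT8 and KRT18 differed by -1.24 ± 0.25 and -1.10 ± 0.23 and ERBB2 by -0.47 ± 0.13. The part of these lists in the values of HSPA5, HERPUD1 and the ATF4 targets was not tested.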

How the data were processed

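Per the labels' protocols, libraries were made with the Illumina TruSeq stranded kit and read as 50 bp single-end reads. cutadapt, FastQC, STAR, HTSeq, DESeq2 and the hg19 build are named in the submitters' processing notes, while versions and the strand setting are not given in the sources used here. Symbols and build are human but the organism label is mouse, so host reads may be counted on conserved genes. The authors deposited raw counts per gene, used in every main test, and log2 values of size-factor-scaled counts plus 1, used as an alternative scale. No column lay outside the 15 samples.

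Counts were fitted in R 4.3.3 with edgeR 4.0.16 (TMM, filterByExpr by group, robust quasi-likelihood, two-sided, Benjamini-Hochberg over 15190 genes, threshold 0.05), with adhesion group alone or, for title numbers, as covariate. Standard errors were taken from the fold change (log2, unsigned) over the root of F, and intervals use the t distribution. Alternatives used DESeq2 1.42.0, limma 3.58.1, other scalings, filters and pseudocounts of 1 and 8, the title number as block or random term, and libraries left out. The fits without number 6 and strongly adherent library 5, the block without number 6, and the interaction were chosen after seeing the data. The members, the lists and the contrast of number 6 were chosen with earlier results of these data known. Any member may be named, and of the wider lists up to 3 risers and 3 fallers past the threshold at a mean of 1 CPM. On simulated counts, the fit was run for weakly against strongly adherent and for number 6. The simulation drew independent libraries with the same spread for all genes, so it does not measure power or error rates in these data. No library pair agreed within sampling noise. No human sequence or coordinate was used here.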

Additional observations from a re-analysis of the deposited data

Results flagged for a closer look

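In 99 sets of values, the 33 genes in each of the 3 adhesion groups, 8 had a highest or lowest library whose gap to its neighbour exceeded Dixon's 95% critical value. Chance flags about 1 in 20 such sets. Of the 8, 7 were libraries of number 6.

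HERPUD1 stood apart in each group: at 103 CPM in strongly adherent library 6 (others 36.7 to 45.0 CPM), 70.0 CPM in unsorted library 6 (others 44.6 to 50.9 CPM) and 75.3 CPM in weakly adherent library 6 (others 43.1 to 52.1 CPM). HSPA5 was at 1232 CPM in unsorted library 6, where the other 4 unsorted libraries ran from 682 to 830 CPM. VLDLR was at 26.4 CPM in strongly adherent library 6 (others 15.7 to 16.5 CPM). The low values were TRIB3 at 24.4 CPM and ASNS at 14.99 CPM in unsorted library 6, below 35.4 to 37.1 CPM and 24.7 to 26.2 CPM in the other unsorted libraries. CEBPB at 145 CPM in unsorted library 7-8 (others 76.4 to 95.4 CPM) was the only such value outside number 6. The causes were not tested.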

How the results depend on the processing

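In the 3 adhesion comparisons no gene was called under any setting, and none of 2772 member values under alternatives passed (lowest adjusted p 0.408). With the title number as replicate block, 0 genes and 0 members were called, with 1030, 172 and 1255 genes at an unadjusted p below 0.05 (weakly against strongly adherent, weakly adherent against unsorted, strongly adherent against unsorted). The numbers did not meet the rule for pairing: 11 of 13 same-numbered pairs had correlated deviations above 0.1 (lowest 0.0164), and 9 of 14 libraries correlated best with their own number, a hint from the data, not the design. ATF4 targets' median for strongly adherent against unsorted was -0.0170 without number 6 and strongly adherent 5, and 0.09 to 0.34 with 1 library left out. The other ranges with 1 library left out were, for weakly against strongly adherent, -0.33 to -0.05 (ATF4 targets) and -0.09 to 0.04 (ER chaperones), for weakly adherent against unsorted 0.00 to 0.08 and -0.05 to 0.03, and for ER chaperones in strongly adherent against unsorted -0.07 to 0.06.

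For number 6, 1 mean per title number gave 1721 genes and 2 members (fewer samples enter that fit), and leaving out 1 library gave 1642 to 4543 genes, 2 to 8 members, and medians of 0.0505 to 0.549 (ATF4 targets) and 0.03 to 0.09 (ER chaperones). The title number as random term gave 3859 genes and 4 members, and limma voom without that term 3879 genes and 4 members. The estimated within-number correlation was 0.002, so this fit treated same-numbered libraries as nearly independent. It cannot decide whether the libraries of number 6 form a single set. For any difference among numbers, DESeq2 gave 3344 genes and 5 members, leaving out 1 library 386 to 1621 genes and 0 to 3 members, leaving out number 6 3 genes and 0 members, and leaving out strongly adherent 5 as well 54 genes and 0 members. For the interaction, DESeq2 gave 296 genes and 4 members, limma voom 0 genes, and leaving out 1 library of another number 0 to 35 genes and 0 to 1 members. Other scalings and filters changed none of these counts by over 1.5 times, and the cause of the changes was not tested. SESN2 was called in number 6 with DESeq2 (0.35, adjusted p 0.0497) and without strongly adherent 5 (0.38, adjusted p 0.0488), and DNAJB9 lost its call with upper-quartile scaling (0.34, adjusted p 0.0627). Depth was not limiting for the members, none of which had fewer than 65 counts in a library.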
